A study of Rattus norvegicus with 8 samples.

Results

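Pomc, Cartpt and Agrp, the peptide genes of the arcuate melanocortin system, were described in the hypothalamus of rats kept on standard chow or on a high fat diet. The members were all polyadenylation sites whose gene symbol was Pomc, Cartpt or Agrp. They numbered 8 of the 73922 sites of the table and came from 3 of its 12255 genes. The sites were measured by whole transcriptome termini site sequencing (WTTS-seq), which counts reads at the 3′ ends of polyadenylated RNA. The control group was 4 adult male Long-Evans rats on standard rodent chow, and the group labelled diet-induced obesity was 4 adult male Long-Evans rats with free access to a high fat diet. Tissue was collected after 36 days in both groups. No transgene, drug or other manipulation is named for either group. The tissue is labelled hypothalamus without a nucleus, so the arcuate cells were a part of each sample, and fewer cells of a type and less RNA per cell cannot be told apart. Both groups carry the library numbers 1 to 4, and the main tests did not pair libraries by number.

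Pomc encodes proopiomelanocortin, the precursor that is cut into α-MSH, β-endorphin and, in the pituitary, ACTH. Neurons of the arcuate nucleus that make α-MSH reduce feeding through the melanocortin receptors Mc3r and Mc4r, and many of them also express Cartpt, the gene of the CART peptides. A neighbouring arcuate population makes Agrp, the agouti-related peptide, which is an antagonist and inverse agonist at the same receptors and promotes feeding. Cartpt is also expressed in other hypothalamic areas, and Pomc is abundant in the pituitary, which lies next to the hypothalamus.

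The libraries held 1417531 to 1957726 reads. The median site of the table had 57 reads over all 8 libraries and the lowest 30, so a site with fewer reads was not analysed here. A gene whose reads were all at such sites was not analysed either, whatever their sum. Mc3r, Mc4r and Npy were not analysed here, and their levels cannot be read from this. Of 6 marker genes of arcuate neurons, Tbx3 was the only one listed, at 12.0 to 37.5 CPM in control and 12.3 to 30.03 CPM in obesity. CPM is the count scaled to reads per 1e6 of the library after TMM scaling. The lateral hypothalamic markers Pmch and Hcrt and the paraventricular and supraoptic markers Avp, Oxt, Sim1, Crh and Trh were all listed.

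All coordinates of sites are on Rnor_6.0, as deposited. Pomc had a pair of sites on the plus strand, the strand of the gene in RefSeq. The first, at chr6:28384668-28384675, held 33 reads (10.8% of the Pomc reads). The second, 4100 bases further along, at chr6:28388767-28388782, held 273 reads (89.2%). Cartpt had 3 sites on the minus strand, also its RefSeq strand, close together. They were chr2:30125243-30125267 with 124 reads (7.13%), chr2:30125509-30125523 with 186 reads (10.7%) and chr2:30125571-30125596 with 1428 reads (82.2%). Whether a site lies in an exon, an intron or an untranslated region was not determined, since no annotation of this build was used here.

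The 3 sites under the symbol Agrp lay on both strands. RefSeq places Agrp on the minus strand. The minus-strand site, at chr19:37526415-37526421, held 70 reads (34.1%). The other sites, at chr19:37570984-37571010 with 86 reads and chr19:37581657-37581670 with 49 reads, lay on the plus strand and together held 135 reads (65.9%). The first of them was 44569 bases from the minus-strand site. The second lay 2742 bases before the nearest plus-strand site of Fam65a, whose current symbol is Ripor1, a plus-strand gene whose span overlaps that of Agrp in RefSeq. Most reads listed under Agrp were thus on the strand opposite to the gene, and the strands are given separately throughout.

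The 150 bases before the RefSeq start of each gene, all 3 matched by symbol, are shown as a description. They come from RefSeq on GRCr8, another build than that of the sites, and do not bear on the strand of the sites. Each stretch is written 5′ to 3′ in the direction of the gene. Capitals mark TATAA and the palindrome TGACGTCA, the cAMP response element, searched on both strands. They lie at chr6:32659203-32659352 (plus) for Pomc, chr2:32991236-32991385 (minus) for Cartpt and chr19:50359498-50359647 (minus) for Agrp.
Pomc: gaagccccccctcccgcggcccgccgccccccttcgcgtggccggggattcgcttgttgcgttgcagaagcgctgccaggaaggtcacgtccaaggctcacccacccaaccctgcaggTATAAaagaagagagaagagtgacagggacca
Cartpt: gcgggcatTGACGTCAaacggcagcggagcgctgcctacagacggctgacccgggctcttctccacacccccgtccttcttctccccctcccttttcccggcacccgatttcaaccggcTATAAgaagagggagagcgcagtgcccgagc
Agrp: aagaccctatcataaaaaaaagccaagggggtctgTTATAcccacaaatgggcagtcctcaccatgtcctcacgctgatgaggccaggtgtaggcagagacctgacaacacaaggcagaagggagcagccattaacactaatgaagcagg

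TATAA stood 32 to 28 bases before the start of Pomc and 31 to 27 bases before that of Cartpt, on the strand of the gene. In the Agrp stretch it was found only on the opposite strand, 115 to 111 bases before the start. Of 33469 RefSeq stretches of this length, 15.2% held TATAA at any position on either strand. That share is not one for the place and strand of the Pomc and Cartpt matches. TGACGTCA was present in the Cartpt stretch, 142 to 135 bases before the start, and in 1.36% of all stretches. These matches are descriptions of the letters and not of binding.

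Cartpt was the most abundant of the 3 genes and the steadiest. In the order of the library numbers 1 to 4, the controls had 202, 202, 228 and 191 reads of Cartpt and the obesity libraries 202, 213, 320 and 180. The highest library of each group was the one numbered 3, and the groups overlapped. Cartpt averaged 152.2 ± 22.5 CPM in control and 158.6 ± 28.2 CPM in obesity (SD, n = 4). It ranked 1129 of 12255 genes by mean CPM, above 90.8% of them. Since one end is counted per RNA, transcript length does not enter these values, but capture can differ between ends.

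The log2 fold change of Cartpt, obesity over control, was 0.06 (SE 0.21, 95% interval -0.39 to 0.51, edgeR adjusted p 0.991). The interval does not extend to a doubling or a halving of the RNA. Among 1017 genes of like mean level, within 1.5-fold, the spread of log2 CPM within groups was lower in 23.6% than in Cartpt, whose SD was 0.24 against a median of 0.32. Leaving out libraries in turn moved the estimate between -0.02 and 0.18.

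**Figure D1:**
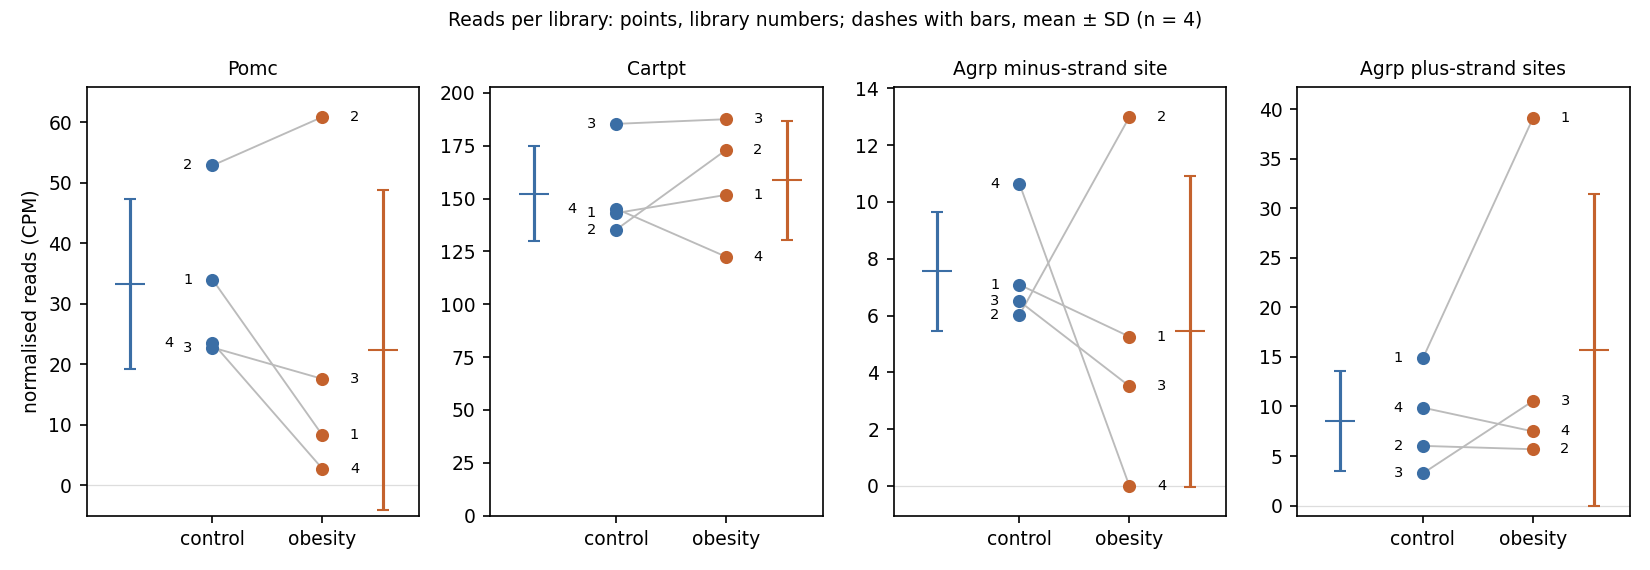
Normalised reads (CPM, linear axis) of Pomc, Cartpt and the Agrp sites by strand in the 4 control and 4 obesity libraries, with lines joining libraries of the same number and the mean ± SD beside each group. Cartpt stayed between 122.5 and 187.5 CPM, while Pomc in obesity ranged from 2.72 to 60.9 CPM.

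Pomc varied more than Cartpt between libraries, above all in obesity. The controls had 48, 79, 28 and 31 Pomc reads in libraries 1 to 4. The obesity libraries had 11, 75, 30 and 4 in that order. Obesity libraries 1 and 4 had fewer reads than any control library, obesity library 2 was near the highest control library, and the groups overlapped. In CPM, obesity libraries 1, 3 and 4, at 8.26, 17.6 and 2.72, were all below the lowest control library, at 22.8, and obesity library 2 was the highest of all 8, at 60.9.

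The mean of Pomc was 33.3 ± 14.01 CPM in control and 22.4 ± 26.4 CPM in obesity (SD, n = 4). The highest library was 2.32 times the lowest in control and 22.4 times the lowest in obesity. Its reads in obesity varied 44.7 times as much as counting alone gives (chi-square per degree of freedom) and 8.20 times in control, against 10.7 and 5.17 for Cartpt. The within-group SD of log2 CPM was 1.33 for Pomc. Of 2535 genes of like level, 97.7% had a lower SD, with a median of 0.54. With 4 reads in obesity library 4, the exact Poisson 95% interval of that count was 1.09 to 10.2, and such intervals cover counting error only.

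The log2 fold change of Pomc was -0.59 (SE 0.69, 95% interval -2.10 to 0.91, edgeR adjusted p 0.978). No gene of the table passed an adjusted p of 0.1 in this fit (0 of 12255, 0%), while 627 (5.12%) had an unadjusted p under 0.05 and DESeq2 called 4. None of the 3 member genes had an unadjusted p under 0.05, with Agrp taken on either strand. The groups did not overlap in 423 genes (3.45%) and in 0 of the 3 member genes, again with Agrp on either strand.

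The estimate for Pomc depended on the comparison of like-numbered libraries. Pomc was lower in obesity in 3 of 4 pairs of the same number, and both libraries numbered 2 were the highest of their group. With the number as a replicate block, the log2 fold change was -1.05 (SE 0.43, 95% interval -1.93 to -0.18, unadjusted p 0.0200, edgeR adjusted p 0.347). In that fit 34 genes (0.277%) passed the adjusted threshold and 1338 (10.9%) had an unadjusted p under 0.05, so Pomc did not pass. Single libraries moved the estimate without the block in both directions. It was -1.78 without obesity library 2 (edgeR adjusted p 0.357), and nearer to 0 without control library 2 (-0.28), obesity library 1 (-0.33) or obesity library 4 (-0.21).

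**Figure D2:**
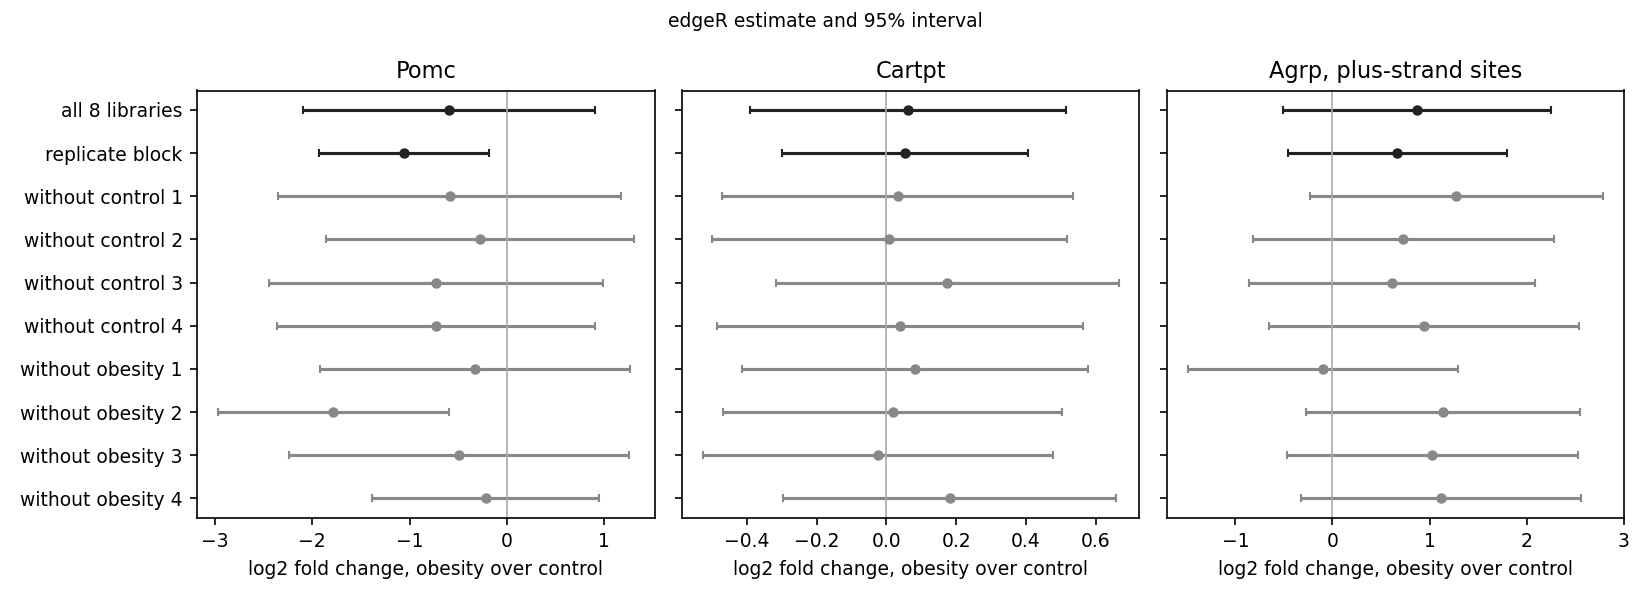
Log2 fold change of obesity over control (points) with its 95% interval (bars) for Pomc, Cartpt and the plus-strand Agrp sites, with all 8 libraries, with the replicate block and with each library left out. The Pomc estimate lies below 0 in every setting shown, from -1.78 to -0.21, and its interval excludes 0 with the block and without obesity library 2. The intervals are not adjusted for the number of genes, and in these settings the edgeR adjusted p was 0.347 and 0.357.

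Some listed pituitary genes, but not all, stood far higher in obesity library 2 than in the other libraries. Of 10 pituitary markers 4 were listed, while Prl, Tshb, Fshb, Pou1f1, Tbx19 and Pax7 were not. Gh1, the growth hormone gene, had 87 reads in obesity library 2, 1 read in control library 3 and 0 in the others. Lhb, the β subunit of luteinizing hormone, had 58 reads in obesity library 2 and 0 to 9 in the others. Cga, the common α subunit, had only 11 reads there, against 71 in control library 1 and obesity library 3. Pitx1, a transcription factor of the pituitary, had 8 reads there and 0 to 7 in the others.

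The summed level of the listed pituitary markers ranged over 25 to 86 reads in control and 9 to 164 reads (6.13 to 133.1 CPM) in obesity. It was highest in obesity library 2, where Pomc was also highest, and lowest in obesity library 4, where Pomc was lowest. In obesity library 2 most of it was Gh1 and Lhb. Control library 2, the second highest for Pomc, had 0 reads of Gh1 and of Lhb. The part of pituitary RNA in the Pomc values was not tested. Obesity library 4 also differed in Ttr, a choroid plexus marker, with 144 reads against 0 to 2 in the others, and its part was not tested.

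**Figure D3:**
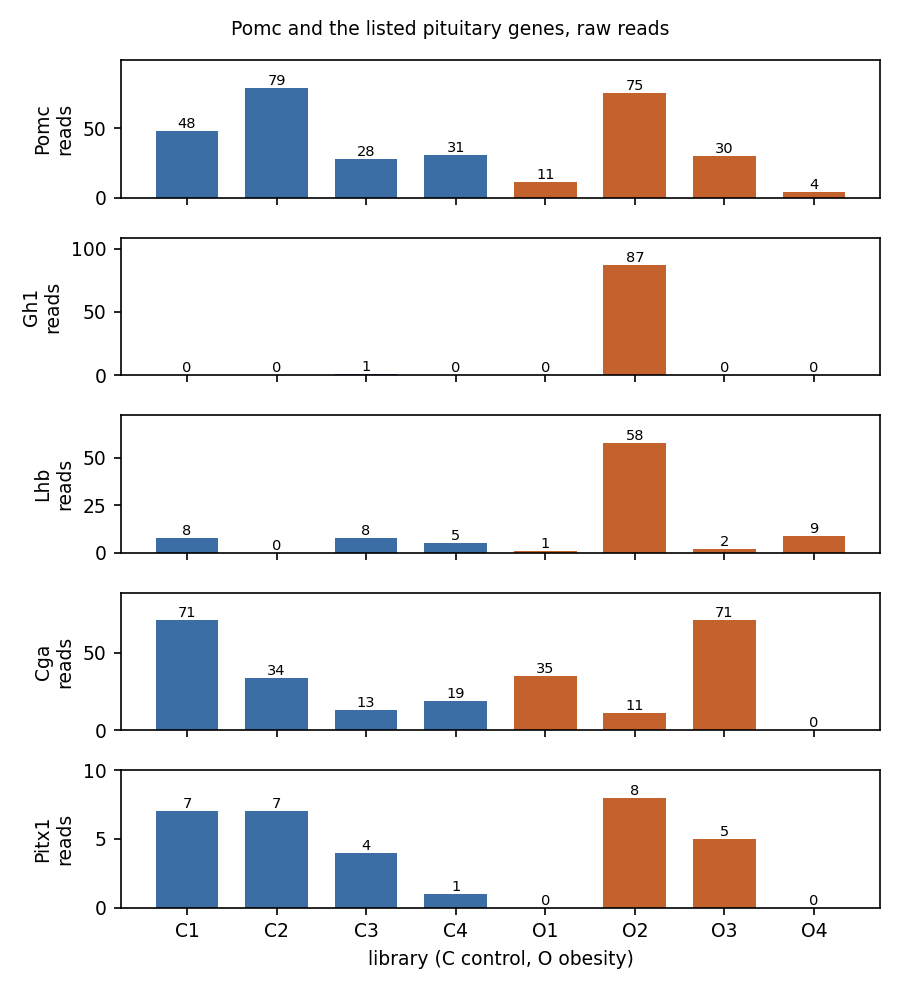
Raw reads (linear axes, each from 0) of Pomc and of the 4 listed pituitary markers in control libraries C1 to C4 and obesity libraries O1 to O4, with the count over each bar. Gh1 and Lhb stood highest in O2, with 87 and 58 reads, where Pomc had 75, whereas C2 had 79 Pomc reads and 0 of both. Cga had 11 reads in O2 against 71 in C1 and O3.

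Agrp on its own strand was the least abundant. The minus-strand site had 10, 9, 8 and 14 reads in the controls, by library number, and 7, 16, 6 and 0 in obesity. Obesity library 2 was the highest of all 8 libraries, the other obesity libraries were below every control library, and the groups overlapped. For the 0 in obesity library 4 the exact Poisson 95% interval reached 3.69 reads, and 3 reads there are 2.04 CPM.

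The minus-strand site averaged 7.56 ± 2.10 CPM in control and 5.44 ± 5.49 CPM in obesity (SD, n = 4), with only 21.8% of genes at a lower mean. Its reads in control varied 0.771 times as much as counting alone gives, and 8.01 times in obesity. The log2 fold change was -0.49 (SE 0.84, 95% interval -2.27 to 1.29, edgeR adjusted p 0.983). It was lower in 3 of 4 pairs, and with the replicate block the estimate was -0.84 (edgeR adjusted p 0.799). The interval includes changes of over 2-fold in either direction. Over the 8 libraries log2 CPM of this site had a Pearson correlation of 0.837 with Pomc, given as a description, since both values come from the same libraries, and chosen after its value was seen.

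The plus-strand sites under the symbol Agrp followed another order. They had 21, 9, 4 and 13 reads in the controls, by library number. In obesity they had 52, 7, 18 and 11. Library 1 was the highest of each group, obesity library 1 stood far above the others, and the groups overlapped. Control library 1 and obesity library 1 also had the most sites without a read, 14788 and 10659 against 4062 to 6622 in the others, and the part of this in the result was not tested.

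The plus-strand sites averaged 8.51 ± 5.04 CPM in control and 15.7 ± 15.7 CPM in obesity (SD, n = 4), with a log2 fold change of 0.87 (SE 0.65, 95% interval -0.51 to 2.25, edgeR adjusted p 0.942). Without obesity library 1 it was -0.10. Summed over all 3 sites, both strands together, the log2 fold change was 0.39 (edgeR adjusted p 0.979). The estimates of the strands thus differed in sign, and neither passed the test. Whether they differed from each other was not tested.

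By mean level the order was Cartpt, Pomc, Agrp plus-strand sites and Agrp minus-strand site. The lowest Cartpt library (122.5 CPM) was above the highest Pomc library (60.9 CPM). Pomc and the Agrp sites overlapped between libraries.

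Ratios within a library do not depend on the scaling of libraries. The log2 ratio of Cartpt to Pomc reads (0.5 reads added to both) was 2.06, 1.35, 3.003 and 2.60 in the controls and 4.14, 1.5, 3.39 and 5.33 in obesity, each in the order of the library numbers. It was higher in obesity in 4 of 4 pairs, and the groups overlapped through obesity library 2. The means were 2.25 ± 0.72 and 3.59 ± 1.60 (SD, n = 4), so the ratio was 1.34 higher in obesity (2-sided exact permutation test, p 0.171, 0.343 adjusted over 3 ratios). The exact sign-flip test over pairs gave p 0.125, the smallest that 4 pairs allow. With single libraries left out the difference ran from 0.76 (without obesity library 4, exact permutation p 0.371) to 2.03 (without obesity library 2, the library through which the groups overlapped).

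The log2 ratio of Pomc to plus-strand Agrp reads averaged 2.03 ± 0.98 in the control group and 0.13 ± 2.46 in the obesity group (SD over n = 4), a change of -1.90 (exact permutation p 0.229, adjusted 0.343). With single libraries left out it ran from -1.13 (without obesity library 1, exact permutation p 0.486) to -2.97 (without obesity library 2). On the RefSeq strand of Agrp the same ratio averaged 2.03 ± 0.82 and 2.05 ± 1.06, a difference of 0.02 (exact permutation p 0.971). The highest value of that obesity group, 3.17 in library 4, rests on 4 Pomc reads and 0 Agrp reads and so on the 0.5 reads added. Without that library the difference was -0.35 (exact permutation p 0.571).

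The log2 ratio of Cartpt to Agrp differed by -0.57 with the plus strand (exact permutation p 0.543). With the RefSeq strand it was 4.27, 4.41, 4.75 and 3.72 in the controls, by library number, and 4.76, 3.69, 5.62 and 8.50 in obesity. The difference was 1.35 (exact permutation p 0.257), and the last value again rests on 0 Agrp reads. It was 0.40 without obesity library 4 (exact permutation p 0.429) and 2.003 without obesity library 2.

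None of the 8 member sites passed an adjusted p of 0.1. The sites called over the whole table were 1 of 73922 without the block (0.00135%) and 4 with it (0.00541%), and DESeq2 called 10 sites, of which 0 were members. DESeq2 gave no adjusted p for Pomc site 1, Agrp site 3 and the minus-strand Agrp site, so it could not call them. At an unadjusted p under 0.05 edgeR gave 0 member sites and 2320 sites in all. The groups did not overlap at 2301 sites (3.11%) and at 0 of the 8 member sites.

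Among the sites, Pomc site 2 carried the Pomc pattern. By library number it had 42, 75, 28 and 29 reads in the controls and 11, 60, 24 and 4 in obesity. Its log2 fold change was -0.79 (SE 0.67, edgeR adjusted p 1.00) and with the replicate block -1.25 (unadjusted p 0.00811, edgeR adjusted p 0.586). Pomc site 1 had 6, 4, 0 and 2 reads in control and 15 of its 33 reads in obesity library 2, with 0, 6 and 0 in obesity libraries 1, 3 and 4. Its log2 fold change was 0.86 with an SE of 1.36.

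The Cartpt sites were close to level between groups. Site 3 ranged over 155 to 191 reads among the controls and 134 to 280 among the obesity libraries, a log2 fold change of 0.02 (SE 0.31). Site 2 had 13 to 38 and 16 to 30 reads (-0.02, SE 0.46), and site 1 had 7 to 24 and 14 to 18 reads (-0.08, SE 0.56). Site 3 held 81.6 ± 2.84% of the Cartpt reads in the control group and 81.7 ± 5.43% in the obesity group (SD over n = 4, p 0.971 by exact permutation).

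The plus-strand Agrp sites had unequal estimates, neither past the test. By library number, site 2 had 10, 2, 1 and 9 reads in the controls and 39, 4, 14 and 7 in obesity. Its log2 fold change was 1.39 (SE 0.84). Site 3 had 11, 7, 3 and 4 reads and 13, 3, 4 and 4 reads (-0.14, SE 0.82). Site 2 held 41.0 ± 22.0% of the plus-strand reads in the control group and 68.4 ± 9.68% in the obesity group (SD over n = 4), which is 27.4 percentage points more (p 0.0857 by exact permutation, 0.257 adjusted over 3 genes). The groups overlapped through control library 4, at 69.2%. With single libraries left out the shares lay 21.1 points (without control library 2, exact permutation p 0.143) to 36.8 points (without control library 4) apart.

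The share of Pomc reads at site 2 was 94.0 ± 5.14% in the control group and 90.0 ± 11.6% in the obesity group (SD over n = 4, p 0.486 by exact permutation). By the Simes test of site usage in edgeR, the adjusted p was 1 for each of the 3 genes, with unadjusted p of 0.537 for Pomc, 0.985 for Cartpt and 0.442 for plus-strand Agrp. That test called 0 of 7996 genes (0%), with 109 at an unadjusted p under 0.05.

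**Figure D4:**
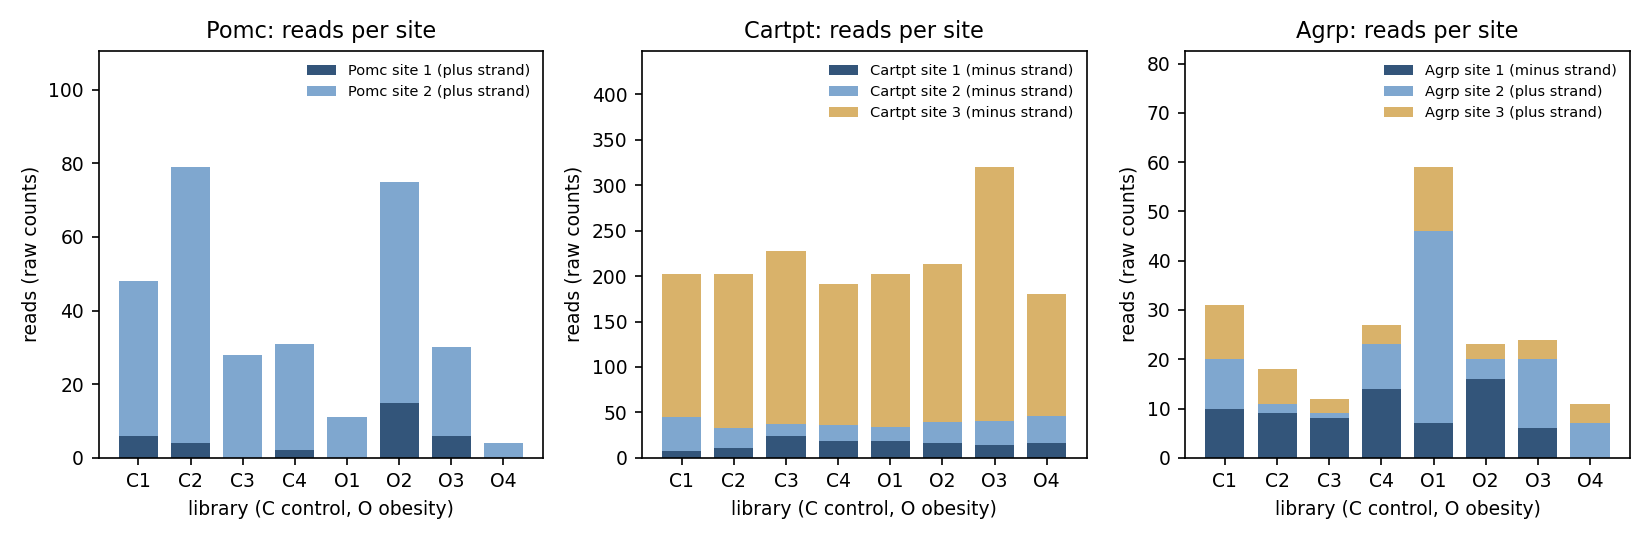
Raw reads (linear axes from 0) at each site of Pomc, Cartpt and Agrp, stacked, in control libraries C1 to C4 and obesity libraries O1 to O4, with the strand of each site in the key. Agrp site 2 on the plus strand had 39 reads in O1, and the minus-strand Agrp site had 0 in O4.

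Genes of the wider melanocortin pathway were read from a list of 60, of which 41 were listed in the table. Without the replicate block none passed an adjusted p of 0.1 by edgeR or DESeq2. With it Th passed, as given below. In the edgeR fit without the block 5 were higher in obesity and 2 lower at an unadjusted p under 0.05. Over all genes 627 (5.12%) had such a p, in either direction. The signs were balanced, with 22 log2 fold changes above 0 and 19 below. The median was 0.018 against 0.00072 over all genes tested. The groups did not overlap in CPM in 5 of the 41, Insr, Otp, Sst, Th and Crh, against 3.45% of all genes. The list was chosen with earlier results of these data known. A share above that of all genes therefore cannot be read as a result about the pathway.

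For receptors and their partners, Oprm1, the μ opioid receptor at which β-endorphin acts, was the only listed receptor, with a log2 fold change of 0.17 (SE 0.43). Mrap2, an accessory protein of the melanocortin receptors, had 0.37 (SE 0.25). Atrn, attractin, had -0.19 (SE 0.23), and Atrnl1 and Gnas had 0.20 and 0.097. Sdc3, a syndecan reported to aid the action of Agrp at its receptor, had 13, 41, 21 and 23 reads in the controls, by library number, and 72, 60, 45 and 35 in obesity. Its log2 fold change was 1.09 (SE 0.41, unadjusted p 0.0165, edgeR adjusted p 0.921).

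Of 6 listed genes of peptide processing, Prcp, a peptidase that inactivates α-MSH, had 14, 5, 4 and 6 reads in control and 39, 14, 9 and 24 in obesity. Its log2 fold change was 1.54 (SE 0.63, unadjusted p 0.0259, edgeR adjusted p 0.921). The convertase Pcsk2 and the carboxypeptidase Cpe had 0.18 (SE 0.23) and 0.24 (SE 0.21). The other 3 listed genes had negative estimates, Scg5, a chaperone of Pcsk2, at -0.34 (SE 0.26), Furin at -0.58 (SE 0.67) and Pam at -0.015 (SE 0.27), so the group held 3 estimates above 0 and 3 below.

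Of 10 listed genes for signals that reach the arcuate neurons, the insulin receptor gene Insr had 36, 35, 29 and 35 reads in control and 52, 38, 103 and 52 in obesity. Its CPM did not overlap between groups, at a log2 fold change of 0.74 (SE 0.33, unadjusted p 0.0358, edgeR adjusted p 0.921). The leptin receptor gene Lepr had 0.25 (SE 0.43). The cannabinoid receptor gene Cnr1 had -0.67 (SE 0.37). Of the 10 estimates, 7 were above 0 and 3 below.

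Of 5 listed transcription factors, Sim1, which marks paraventricular neurons that receive melanocortin input, had 0, 5, 2 and 10 reads in control and 16, 4, 27 and 31 in obesity, a log2 fold change of 2.03 (SE 0.82, unadjusted p 0.0243, edgeR adjusted p 0.921). Otp, a factor needed for neurons of the same nucleus, had 0, 4, 2 and 2 reads against 8, 4, 7 and 11, and 1.78 (SE 1.02). The other 3 were below 0, Nhlh2 at -1.59 (SE 1.19), Tbx3 at -0.15 (SE 0.43) and Isl1 at -0.14 (SE 0.31), and the median of the 5 was -0.14. Among peptides made in the same nucleus, Crh, corticotropin-releasing hormone, had 5, 1, 4 and 5 reads against 12, 8, 26 and 10, and 1.72 (SE 0.74, unadjusted p 0.0323, edgeR adjusted p 0.921). The other listed markers of paraventricular and supraoptic neurons did not share this rise. Trh had 0.17, Avp -0.44 and Oxt -0.74 (edgeR adjusted p 0.991, 0.921 and 0.921). The summed level of the 5 paraventricular and supraoptic markers, most of it Avp, was 886.8 to 1299 CPM in control and 683.5 to 892.2 CPM in obesity.

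Of 14 listed neighbouring peptide and transmitter genes, Crh included, 5 estimates were above 0 and 9 below. Sst, somatostatin, had 34, 15, 14 and 24 reads in control and 7, 8, 6 and 14 in obesity (log2 fold change -1.36, SE 0.54, edgeR adjusted p 0.921). Th, tyrosine hydroxylase of dopamine synthesis, had 68, 46, 47 and 52 reads in control. In obesity it had 12, 12, 47 and 2, lowest in library 4 as Pomc was. Its log2 fold change was -1.69 (SE 0.54, edgeR adjusted p 0.921). With the replicate block Th was the only listed pathway gene to pass, at -1.98 (edgeR adjusted p 0.0880), against 0.277% of all genes.

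**Figure D5:**
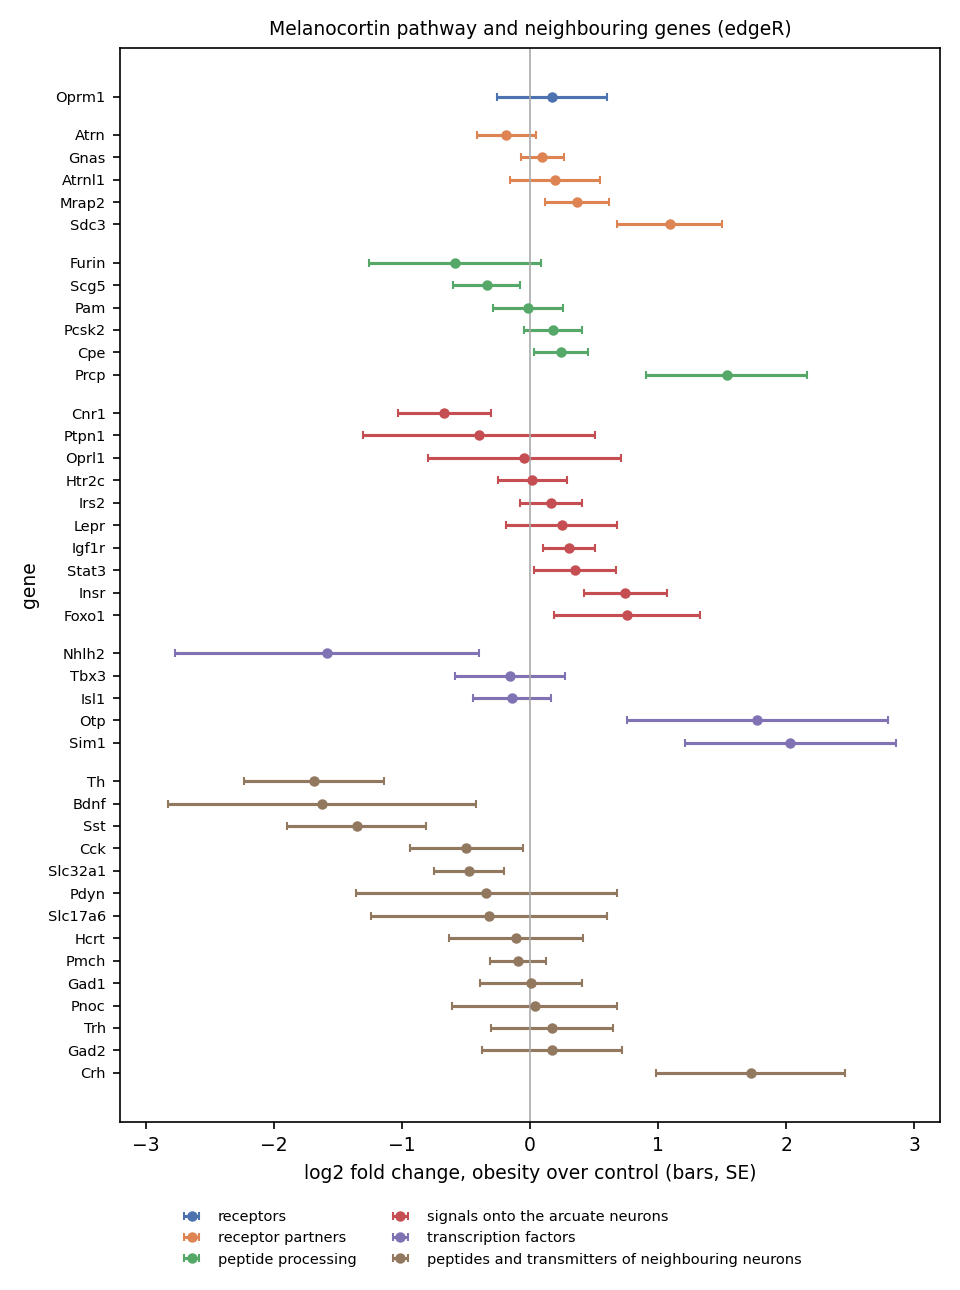
Log2 fold change of obesity over control (points) with its SE (bars) for the 41 listed pathway genes, grouped by role. Sim1 (2.03), Otp (1.78) and Crh (1.72) stand highest and Th (-1.69) lowest. The values are from the fit without the replicate block, in which no gene passed an adjusted p of 0.1.

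The genes most like each member in log2 CPM over the 8 libraries were sought among 8301 genes of at least 10 CPM on average. For Pomc they were U2surp (Pearson correlation 0.976), LOC100359505, Fdps, Tbce and Rit1 (0.934). For Cartpt they were Rnf169 (0.964), Fah, Nrde2, Glmn and Ep400 (0.910). For the plus-strand Agrp sites they were Nr3c2 (0.982), LOC103691988, LOC681292, LOC689986 and LOC102554833 (0.969), and for the minus-strand site Gpat2 (0.993), Mrpl44, Ttc4, Rpl22 and Rpl7l1 (0.940). Cartpt and Pomc, which share many arcuate neurons, had a correlation of 0.355. All these values come from the same 8 libraries, and with so many genes compared the highest are large by selection.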

How the data were processed

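The authors deposited raw read counts per polyadenylation site for 8 WTTS-seq libraries, without normalization. The submitters' processing notes name Bowtie2 2.2.3 and Rnor_6.0. The tools of site clustering and gene assignment are not given in the sources used here. A line without a site, holding a column total, was left out. The lowest site total was 30 reads.

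Sites were summed per gene on the strand with most of its reads, and Agrp also on its RefSeq strand, a choice made after seeing the data. For genes and sites the main test was edgeR's quasi-likelihood F test (version 4.0.16 in R 4.3.3, robust, TMM, all features, Benjamini-Hochberg, threshold 0.1). Site usage was tested with diffSpliceDGE, and ratios and shares by exact permutation (2-sided, 70 arrangements, no p below 0.0286). An SE is the log2 fold change over the root of F, and 95% intervals use t quantiles. CPM of genes uses gene-sum library sizes. Scripts were tested on simulated data.

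Alternatives were DESeq2 1.42.0, its size factors, filterByExpr, a pseudocount of 5 reads, both strands, the replicate block and each library left out. Deviations from group means correlated at 0.224 to 0.33 between same-numbered libraries and -0.174 to 0.0468 between others. Such deviations sum to 0 in each group, so high values between same-numbered libraries push those between others down. The numbers were taken to pair libraries in the pair counts, the replicate block and the sign-flip tests only. The main tests left this pairing out. What libraries of the same number have in common is not stated. The design text gives 8 rats for 8 libraries. The planned Agrp to Npy ratio was not run. Members and gene lists were chosen with earlier results of these data known. Named pathway genes had an unadjusted p under 0.05 or were among the 5 largest changes at 5 CPM or more. Mc3r, Mc4r and Npy were also to be named, as were the 5 genes most like each member. All other pathway genes given with values were chosen after their values were seen.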

Additional observations from a re-analysis of the deposited data

Results flagged for a closer look

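Over 36 groups of 4 libraries examined for a library far from the other 3 (Dixon's ratio), 2 stood out, where chance alone gives about 1.8. Both were the plus-strand reads under Agrp in obesity library 1. The summed level there was 39.1 CPM against 5.68 to 10.5 CPM in the other obesity libraries. Agrp site 3 had 7.36 CPM there against 2.02 to 2.24 CPM. CPM of sites uses the reads of all sites as library size, so the site value is not a part of the summed value.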

How the results depend on the processing

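Of 160 alternative values, 140 kept their direction and their side of the threshold, or their count. Another 15 changed direction, 4 crossed the threshold with a library left out, and 1 count moved. The sign-flip values could not cross the threshold of 0.05, since the smallest p of that test is 0.125. With Agrp counted on its RefSeq strand, its log2 fold change was -0.49 in place of 0.87, the Pomc to Agrp ratio differed by 0.018 and the Cartpt to Agrp ratio by 1.35. With libraries left out in turn, the log2 fold change ranged from -1.78 to -0.21 for Pomc, from -0.025 to 0.18 for Cartpt (below 0 without obesity library 3), from -0.10 to 1.28 for plus-strand Agrp (below 0 without obesity library 1) and from -1.35 to -0.06 for minus-strand Agrp. The ratio difference ranged from -2.97 to -1.13 for Pomc to plus-strand Agrp and from 0.76 to 2.03 for Cartpt to Pomc. For Cartpt to plus-strand Agrp it ranged from -0.94 to 0.021. With Agrp on its RefSeq strand it ranged from -0.354 to 0.497 for Pomc to Agrp (below 0 without control library 3 or 4 or obesity library 2, 3 or 4) and from 0.402 to 2.003 for Cartpt to Agrp, where obesity library 4 had 0 Agrp reads. The share at the main site differed by 21.1 to 36.8 points for plus-strand Agrp and by -7.33 to -0.66 for Pomc. For Cartpt it differed by -1.81 to 2.54 (below 0 without control library 1 or 4 or obesity library 1 or 3). Over all alternatives the edgeR or DESeq2 adjusted p was 0.347 to 1.00 for Pomc, 0.952 to 1.00 for Cartpt, 0.606 to 1.00 for plus-strand Agrp and 0.689 to 1.00 for minus-strand Agrp.

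The replicate block raised the pathway genes past the threshold from 0 to 1 and changed no call of a member. Its values were -1.05 for Pomc, 0.05 for Cartpt, 0.67 for plus-strand Agrp (0.39 with both strands summed and no block) and -0.84 for minus-strand Agrp. The filterByExpr filter on sites left no usage value for Pomc and Agrp. Pomc had 4 to 79 reads and the minus-strand Agrp site 0 to 16 reads per library, and in obesity both varied more than counting alone gives. The cause of the changed values was not tested.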
